A study of Mus musculus with 39 samples.

Results

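Sema7a and the genes that lie beside Cyp11a1 on mouse chromosome 9 were followed in whole testis, because Cyp11a1 is the gene that names the Cre driver of 1 of the 3 mouse lines studied. The 7 listed genes were Sema7a, Ubl7, Ccdc33, Stra6, Arid3b, Clk3 and Edc3. Sema7a was chosen by its rise in the Cyp11a1:Cre line against wild type and the others by their position near Cyp11a1, and each was read from the probe set annotated with that single symbol. Of the 7 genes, 6 had such a probe set, out of 22180 genes in the whole series, and all 6 passed the filter on dim genes that left 19007 genes for testing. Clk3 was covered together with Edc3 by 1 shared probe set and was not analysed as a gene.

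All mutant mice carried floxed Prkar1a, written Prkar1afl/fl, with a different Cre in each line. The mutants were prKO (Sf1:Cre,Prkar1afl/fl), srKO (Amh:Cre,Prkar1afl/fl) and lrKO (Cyp11a1:Cre,Prkar1afl/fl), and they were set against wild-type littermates (WT). At 2 weeks there were 4 prKO, 4 srKO, 4 lrKO and 8 WT testes, and at 2 months 3 prKO, 4 srKO, 4 lrKO and 8 WT testes, each on 1 Affymetrix array and labelled as a biological replicate. Values are log2 intensities after RMA, a normalization that places all arrays on a common distribution, so a difference of 1 is a change of 2-fold. Sf1:Cre acts in the somatic precursors of gonad and adrenal cortex. Amh:Cre acts in the Sertoli cells that support germ cells, and the testicular cells reached by Cyp11a1:Cre are the Leydig cells, which make steroids. How the Cyp11a1:Cre allele was built, and whether the WT littermates carried Cre or floxed alleles, is not given in the sources used here.

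Cyp11a1 encodes the mitochondrial enzyme that makes the first step from cholesterol to steroid hormones. Sema7a encodes semaphorin 7A, a signal protein held on the cell surface by a lipid anchor and known from axon growth and immune cells, where it acts through the integrin of the alpha 1 and beta 1 chains and through plexin C1. In the order of the mouse gene table the genes ran Edc3, Clk3, Arid3b, Ubl7, Sema7a, Cyp11a1, Ccdc33 and Stra6. Sema7a and Ccdc33 were thus the genes directly next to Cyp11a1, 1 on each side, Ubl7 and Stra6 lay 2 positions away, Arid3b 3, Clk3 4 and Edc3 5.

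The windows of 250 bases before the annotated starts of Sema7a, Cyp11a1 and Ccdc33 are shown because these 3 genes stand next to each other and the lrKO values of Sema7a and Ccdc33 are set beside those of Cyp11a1 further on. The table gives a second start for Cyp11a1, whose window is shown too, and one for Ccdc33, whose window overlaps the first and is left out. The sequences come from RefSeq on build GRCm38.p6, are written 5′ to 3′ on the strand of the gene, and end at the base before the start. Capitals mark matches to 4 strings searched on both strands, AAGGTCA and its shorter form AGGTCA (the core of sites bound by NR5A1, also called SF1), and TGACG with the full palindrome TGACGTCA (sites bound by CREB, the factor activated by cAMP and PKA). The shorter string of each pair lies within the longer.
Sema7a, chr9:57939862-57940111, plus strand: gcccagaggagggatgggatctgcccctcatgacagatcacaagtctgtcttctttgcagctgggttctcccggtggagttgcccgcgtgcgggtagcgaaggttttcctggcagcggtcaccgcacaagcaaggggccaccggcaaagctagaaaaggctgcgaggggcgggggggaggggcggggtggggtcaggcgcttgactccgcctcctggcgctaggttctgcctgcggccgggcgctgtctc
Cyp11a1, chr9:57997774-57998023, plus strand: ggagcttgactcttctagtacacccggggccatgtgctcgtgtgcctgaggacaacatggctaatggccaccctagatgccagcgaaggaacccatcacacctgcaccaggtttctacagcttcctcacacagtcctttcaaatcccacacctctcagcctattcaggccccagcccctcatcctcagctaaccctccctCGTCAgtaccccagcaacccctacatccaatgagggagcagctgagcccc
Cyp11a1, second start, chr9:58014702-58014951, plus strand: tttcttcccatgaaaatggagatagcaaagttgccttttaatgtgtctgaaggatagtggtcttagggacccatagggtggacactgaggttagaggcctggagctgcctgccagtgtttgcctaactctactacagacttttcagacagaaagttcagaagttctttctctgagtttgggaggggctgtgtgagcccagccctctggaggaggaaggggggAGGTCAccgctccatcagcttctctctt
Ccdc33, chr9:58102298-58102547, minus strand: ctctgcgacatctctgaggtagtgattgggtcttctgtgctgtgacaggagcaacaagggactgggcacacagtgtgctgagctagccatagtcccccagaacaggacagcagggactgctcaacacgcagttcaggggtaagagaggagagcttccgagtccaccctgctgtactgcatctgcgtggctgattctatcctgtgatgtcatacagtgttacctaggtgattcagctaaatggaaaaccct
The Sema7a window and both Ccdc33 windows held 0 matches. The first Cyp11a1 window held 1 match to TGACG, read on the opposite strand as CGTCA, at bases -50 to -46 from the start, and the second held 1 match to AGGTCA at bases -28 to -23 from its own start. Among 32851 promoter windows of the same length, 4.08% held AAGGTCA, 14% AGGTCA, 17.8% TGACG and 1.55% TGACGTCA. These matches describe letters only, and no match says nothing about binding.

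Prkar1a, the targeted gene, encodes the regulatory subunit that keeps PKA inactive. In lrKO testes it had 9.02, 8.98, 9.05 and 9.08 at 2 weeks and 8.90, 8.88, 8.86 and 8.88 at 2 months, against WT testes with a lowest, median and highest value of 8.84, 8.97 and 9.14 at 2 weeks and 8.61, 8.88 and 9.00 at 2 months. The lrKO arrays lay inside the WT range at both ages (limma adjusted p = 0.84 and 0.94), so the level of Prkar1a did not check the label of this line, and lrKO below means the arrays labelled so. In bulk testis RNA, fewer cells of a type and less RNA per cell cannot be told apart. Markers of Leydig cells, Sertoli cells and germ cells were all above the filter value of 4.62 in all 8 groups. Of 4 adrenal markers, Mc2r was below it in all 8 groups. Cyp21a1 was below it in WT testes at both ages and in srKO and lrKO testes at 2 weeks, and above it elsewhere. Cyp11b1 and Cyp11b2 were above it in every group, but close to it in WT testes at 2 months (4.83 and 4.67). In the same WT testes the mean of 4 spermatid markers was 11.69 to 11.95. A label on RNA extraction names adrenal glands, while the sample titles name testis. Values of adrenal markers so near the filter do not by themselves check that label. Adam7, an epididymal gene, stood at 11.70 in prKO replicate 1 at 2 months and 7.08 in prKO replicate 3 at 2 weeks. In the other groups its highest values, all at 2 months, were 5.56 in srKO, 6.40 in lrKO and 6.11 in WT testes. The prKO differences of the 6 genes at 2 months are given with and without the array at 11.70. Prkar1a was also lower in WT replicates 1 to 4 than in WT replicates 5 to 8 at both ages, so each set was used alone as well.

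Sema7a was higher in lrKO testes than in WT testes at both ages. At 2 weeks it had 10.30, 10.45, 10.63 and 10.58 in lrKO testes, against a lowest, median and highest value of 9.25, 9.40 and 9.51 in WT testes. At 2 months it had 9.17, 9.03, 9.02 and 8.99 in lrKO testes, against 7.78, 7.91 and 8.17 in WT testes. Every lrKO array stood above every WT array at each age, with no overlap. The difference was 1.10 ± 0.08 (standard error, 95% interval 0.94 to 1.26) at 2 weeks, or 2.14-fold, and 1.12 ± 0.13 (0.84 to 1.39) at 2 months, or 2.17-fold. By size of rise Sema7a ranked 19 and 10 of 19007 genes. Because this rise chose the gene, these values are a description and carry no test. The change at 2 months minus the change at 2 weeks was 0.02 ± 0.15 (95% interval -0.29 to 0.33).

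The lrKO rise sat on a level that differed between ages. In WT testes Sema7a averaged 7.94 ± 0.15 at 2 months and 9.39 ± 0.10 at 2 weeks (SD, n = 8 each), a difference of -1.46 ± 0.09 (standard error, limma adjusted p = 2.8e-17), and the 8 arrays of each age did not overlap. The lrKO testes at 2 months, at 9.05 ± 0.08 (SD, n = 4), lay below the WT testes at 2 weeks. With all arrays, the order of the 8 group means ran lrKO, srKO, WT and prKO at 2 weeks (10.49, 9.49, 9.39 and 9.19), then lrKO, prKO, srKO and WT at 2 months (9.05, 8.79, 8.41 and 7.94). Without the array high in Adam7 the prKO mean at 2 months was 9.08 (n = 2), slightly above that of lrKO. Neighbours in this order whose arrays overlapped were srKO and WT at 2 weeks, WT and prKO at 2 weeks, prKO at 2 weeks and lrKO at 2 months, lrKO and prKO at 2 months, and prKO and srKO at 2 months.

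In the other lines Sema7a followed a different course with age. At 2 weeks it had 9.23, 9.35, 9.16 and 9.03 in prKO testes, of which 3 of 4 lay below all WT arrays, a difference of -0.20 ± 0.08 that did not pass the test (limma adjusted p = 0.1). It had 9.65, 9.51, 9.48 and 9.34 in srKO testes, which overlapped the WT range (0.10 ± 0.08, limma adjusted p = 0.56). At 2 months Sema7a rose in both lines. It had 8.20, 9.17 and 9.00 in prKO testes and 8.39, 8.60, 8.27 and 8.38 in srKO testes, all above every WT array, as were 18.3% of all genes tested in prKO and 9.52% in srKO.

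The 2-month rise was 0.85 ± 0.14 in prKO (limma adjusted p = 6.8e-05) and 0.47 ± 0.13 in srKO (limma adjusted p = 0.01). The lowest prKO value came from the array high in Adam7, and without it the prKO rise was 1.15 (limma adjusted p = 1.1e-07). Without srKO replicate 2 the srKO rise missed the threshold (0.41, limma adjusted p = 0.053), as it did when only WT replicates 1 to 4 were used (0.44, limma adjusted p = 0.076). Between lines, Sema7a in lrKO testes minus prKO testes was 1.30 ± 0.09 at 2 weeks and 0.26 ± 0.16 at 2 months, where the 95% interval of -0.07 to 0.60 included 0. Without the array high in Adam7 the 2-month value was -0.03 ± 0.12 (-0.28 to 0.22). In lrKO testes minus srKO testes Sema7a was 1.00 ± 0.09 and 0.64 ± 0.15, with no overlap at either age. Of all genes, 5.43% stood wholly higher in lrKO than in srKO at 2 weeks and 12.1% at 2 months. Single cell type markers also changed in lrKO, where 0.1% of all genes tested were called at 2 weeks and 0.184% at 2 months. Cst9, a Sertoli cell marker, was lower in lrKO testes at both ages (-1.67 ± 0.23 and -0.51 ± 0.08, limma adjusted p = 0.0027 and 0.0091). It was the only 1 of 8 Sertoli cell markers called. Their median was 0.06 and 0.03, with Gata1 (0.23) highest at 2 weeks and Fshr (0.27) at 2 months. At 2 months Hsd3b6, an enzyme of adult Leydig cells, was lower (-1.59 ± 0.28, limma adjusted p = 0.012). Of 6 Leydig cell markers it alone was called, with Star highest at 0.40. Cyp21a1, the adrenal 21-hydroxylase, was at 5.91 in lrKO testes and at 4.57, below the filter value, in WT testes at 2 months (limma adjusted p = 0.034). The part of these markers in the Sema7a values was not tested. The Sema7a contrasts with lrKO share the lrKO arrays that chose the gene and were not tested. The prKO and srKO contrasts and the WT age contrast share the WT arrays used in that choice. Their p-values for Sema7a are thus not independent of it.

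**Figure D1:**
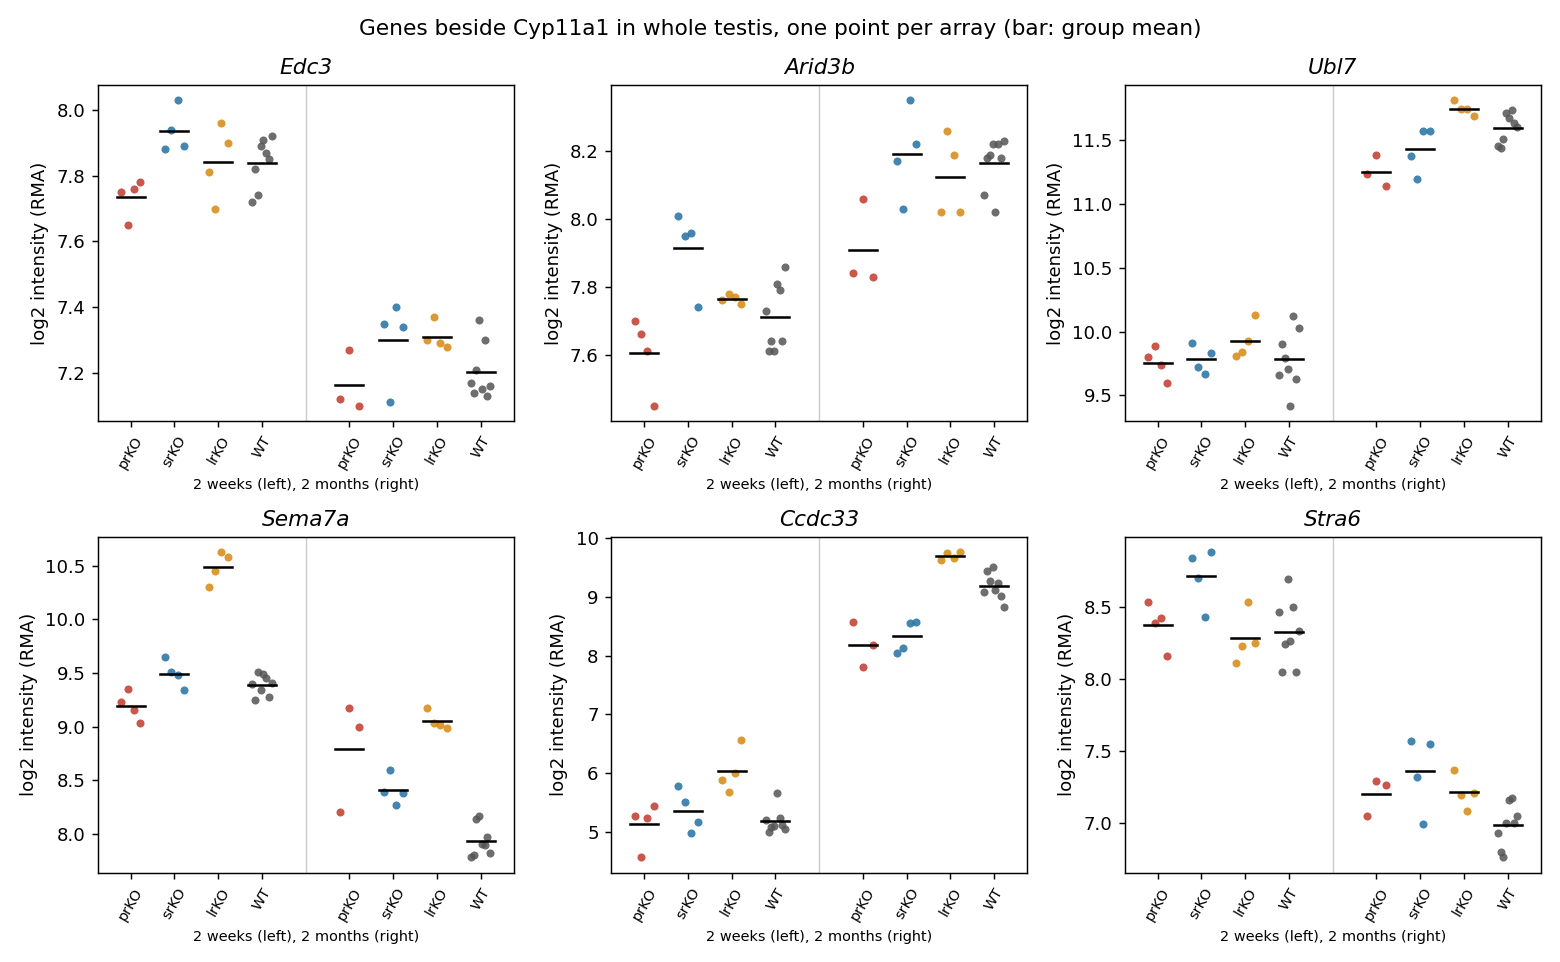
Log2 intensity of the 6 measured genes in every array, with prKO, srKO, lrKO and WT from left to right in each age and bars at the group means. In the Sema7a panel the lrKO points stand above all WT points at both ages, and in the Ccdc33 panel the same holds with smaller gaps, while the other 4 genes overlap between lrKO and WT.

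Ccdc33, the gene on the other side of Cyp11a1, encodes a coiled-coil protein found mainly in testis. At 2 weeks it had 5.88, 5.69, 6.01 and 6.57 in lrKO testes, against a lowest, median and highest value of 5.00, 5.11 and 5.66 in WT testes. At 2 months it had 9.62, 9.75, 9.65 and 9.76 in lrKO testes, against 8.83, 9.17 and 9.51 in WT testes. All lrKO arrays stood above all WT arrays at both ages although the lowest lrKO value at 2 weeks was close to the highest WT value. The difference was 0.85 ± 0.18 (95% interval 0.48 to 1.22, 1.80-fold) at 2 weeks and 0.51 ± 0.14 (0.22 to 0.80, 1.42-fold) at 2 months. Neither passed the test across all genes, with limma adjusted p = 0.075 (unadjusted p = 0.00012) at 2 weeks and 0.23 (unadjusted p = 0.0015) at 2 months. By size of rise it ranked 65 and 86 of 19007 genes. The 2-week difference was called without WT replicate 5, the highest WT array (0.92, limma adjusted p = 0.042), and with WT replicates 1 to 4 as the only WT arrays (0.94, limma adjusted p = 0.019), a setting that called 942 genes in all where 19 were called with all 8 WT arrays. Without lrKO replicate 4, the highest lrKO array, it was 0.67 (limma adjusted p = 0.31). Over all alternatives, which included WT replicates 5 to 8 alone, the Ccdc33 difference was 0.42 to 0.97 at 2 weeks and 0.23 to 0.65 at 2 months.

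Genes that lay above every WT array in every lrKO array made up 0.384% of those tested at 2 weeks and 0.81% at 2 months, and 0.021%, or 4 of 19007, did so at both ages. Those 4 genes were Sema7a, Ccdc33, Gm4787 (0.30 and 0.33) and Pcyt1a (0.14 and 0.18), of which the last encodes an enzyme of phosphatidylcholine synthesis. Gm4787 and Pcyt1a were picked out after their values were seen. The lrKO change of Ccdc33 at 2 months minus that at 2 weeks was -0.34 ± 0.23 (limma adjusted p = 0.82).

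Set against the lines with other Cre drivers, Ccdc33 was higher in lrKO testes in 3 of 4 comparisons. At 2 weeks it had 5.27, 4.57, 5.24 and 5.45 in prKO testes, all below the 4 lrKO arrays listed above (13.2% of all genes stood wholly higher in lrKO), and lrKO minus prKO was 0.90 ± 0.20 (limma adjusted p = 0.006). In srKO testes it had 5.78, 5.51, 4.98 and 5.17, of which the first overlapped the lrKO range, and lrKO minus srKO was 0.67 ± 0.20 (limma adjusted p = 0.091, not called). At 2 months it had 8.57, 7.81 and 8.18 in prKO testes and 8.05, 8.12, 8.56 and 8.57 in srKO testes. Both groups lay at least 1 unit below every lrKO array (19.4% of all genes stood wholly higher in lrKO than in prKO and 12.1% than in srKO), with lrKO minus prKO at 1.51 ± 0.17 (limma adjusted p = 1.1e-06, and 1.70 without the array high in Adam7) and lrKO minus srKO at 1.37 ± 0.16 (limma adjusted p = 3.8e-06).

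Germ cell markers were read beside Ccdc33 because its level in WT testes was 4.00 ± 0.13 higher at 2 months than at 2 weeks, or 16-fold (limma adjusted p = 6.9e-25). At 2 weeks the mean level of 4 germ cell markers was 10.43 to 10.81 in lrKO testes and 9.28 to 10.84 in WT testes, and 0 of 4 were called by limma; the largest difference was that of Piwil1 (1.07 ± 0.74, limma adjusted p = 0.67). The mean of 4 spermatid markers was 5.18 to 5.35 in lrKO testes and 5.12 to 5.32 in WT testes, with 0 of 4 called. At 2 months the spermatid mean was 11.79 to 11.99 in lrKO testes and 11.69 to 11.95 in WT testes, again with 0 of 4 called, although Acrv1 lay above all WT arrays (0.26 ± 0.11, limma adjusted p = 0.54). The germ cell mean at 2 months was 10.45 to 10.53 in lrKO testes and 10.54 or higher in WT testes, just below WT with no overlap, and 0 of 4 were called. The spermatid ranges overlapped at both ages and the germ cell ranges at 2 weeks. Over all genes tested, 0.1% were called in lrKO against WT at 2 weeks and 0.184% at 2 months. At those shares most lists of 4 would hold 0 calls. In the other lines at 2 weeks the germ cell mean was 9.23 to 9.88 in prKO testes, wholly below lrKO, and 9.15 to 10.43 in srKO testes. The part of these markers in the lrKO values of Ccdc33, or in its differences between lines, was not tested. A second Ccdc33 probe set stayed near background, at 4.53 ± 0.19 in lrKO testes (SD, n = 4) and 4.55 ± 0.15 in WT testes (SD, n = 8) at 2 weeks and at 4.47 ± 0.15 and 4.53 ± 0.08 at 2 months. The average of both probe sets differed by 0.42 (limma adjusted p = 0.12) and 0.23 (limma adjusted p = 0.41). A further probe set, shared by Ccdc33 and Gm16130, had 5.87 to 6.19 in lrKO testes and 5.39 to 6.18 in WT testes at 2 weeks. At 2 months it had 5.99 to 6.61 in lrKO testes and 5.77 to 6.32 in WT testes. Its lrKO and WT values overlapped at both ages, with both ends of the lrKO range above those of the WT range. The sizes of the lrKO and age differences given for Ccdc33 are those of the probe set used.

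The next genes outward showed smaller differences between lrKO and WT testes. Ubl7, which encodes a ubiquitin-like protein, had 9.81, 9.84, 9.93 and 10.13 in lrKO testes at 2 weeks, inside or at the edge of the WT range of 9.42 to 10.12. At 2 months it had 11.81, 11.74, 11.74 and 11.69 in lrKO testes, of which 3 of 4 lay above the WT values of 11.44 to 11.73. The difference was 0.15 ± 0.11 at 2 weeks (limma adjusted p = 0.68) and 0.15 ± 0.08 at 2 months (limma adjusted p = 0.65). Stra6 encodes the receptor through which cells take up retinol from its carrier in blood. It had 8.11, 8.23, 8.53 and 8.25 in lrKO testes at 2 weeks, within the WT range (-0.04 ± 0.12, limma adjusted p = 0.92), and 7.37, 7.19, 7.08 and 7.21 at 2 months, with 3 of 4 above all WT arrays (0.23 ± 0.10, limma adjusted p = 0.59).

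Farther out, the 95% intervals included 0, as did those of Ubl7 at both ages and of Stra6 at 2 weeks. Arid3b, a DNA-binding factor of the ARID family, differed by 0.05 ± 0.06 (95% interval -0.08 to 0.19) at 2 weeks and -0.04 ± 0.07 (-0.19 to 0.11) at 2 months. Edc3, an enhancer of mRNA decapping, differed by 0.00 ± 0.06 (-0.12 to 0.12) and 0.11 ± 0.07 (-0.03 to 0.25). The probe set shared by Clk3, a kinase of splicing factors, and Edc3 averaged 8.91 ± 0.07 in lrKO testes (SD, n = 4) and 8.89 ± 0.05 in WT testes (SD, n = 8) at 2 weeks, and 9.18 ± 0.04 and 9.16 ± 0.09 at 2 months, so lrKO and WT overlapped. Of the 5 neighbours other than Sema7a, 0 were called in lrKO against WT at either age by limma, where 0.1% of all genes tested were called at 2 weeks and 0.184% at 2 months. At an unadjusted p under 0.05 there were 1 at 2 weeks (Ccdc33) and 2 at 2 months (Ccdc33 and Stra6). For none of the 5 did the lrKO change differ between ages by the test (limma, 0 of 5 called and 0 at an unadjusted p under 0.05, background 0.1%).

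**Figure D2:**
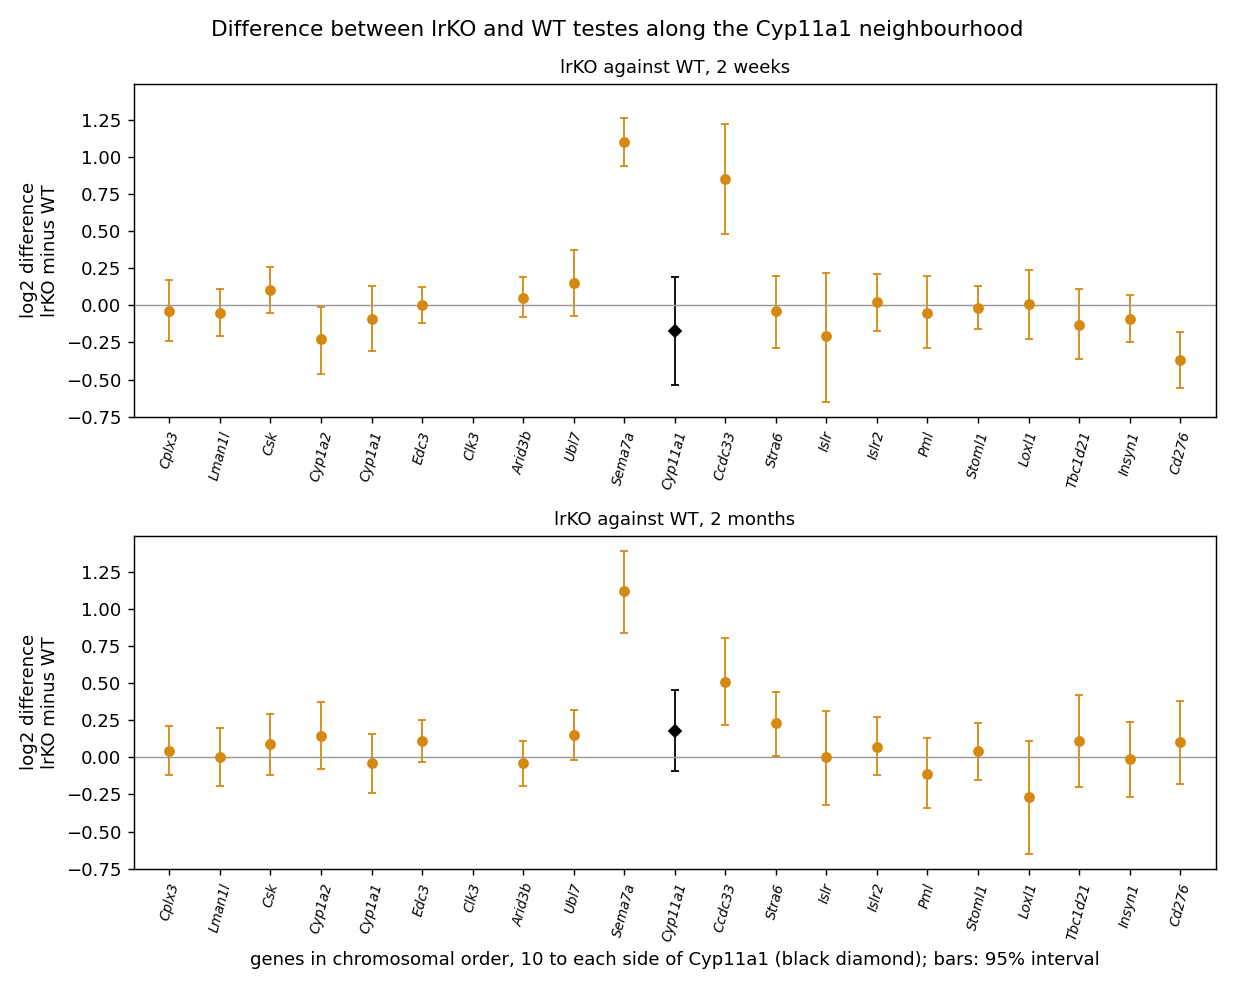
Log2 difference, lrKO minus WT, for Cyp11a1 (diamond) and the 10 genes to each side in chromosomal order, with 95% intervals, at 2 weeks (top) and 2 months (bottom). Sema7a and Ccdc33, next to Cyp11a1 on either side, stand at 1.10 and 0.85 at 2 weeks and at 1.12 and 0.51 at 2 months, and the other genes range over -0.37 to 0.15 (2 weeks) or -0.27 to 0.23 (2 months); Clk3 has no point.

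Cyp11a1 itself did not pass the test in lrKO. It had 8.94, 8.99, 8.92 and 8.81 in lrKO testes at 2 weeks, against a lowest, median and highest value of 8.43, 9.36 and 9.50 in WT testes (-0.17 ± 0.18, limma adjusted p = 0.76). At 2 months it had 10.42, 10.50, 10.37 and 10.35 in lrKO testes, against a median and highest value of 10.23 and 10.45 in WT testes (0.18 ± 0.13, limma adjusted p = 0.77). The groups overlapped at both ages. A dimmer second Cyp11a1 probe set averaged 5.90 ± 0.06 in lrKO testes (SD, n = 4) and 5.76 ± 0.17 in WT testes (SD, n = 8) at 2 weeks, and 5.57 ± 0.14 and 5.19 ± 0.18 at 2 months. At 2 months all 4 lrKO values of that probe set (5.37 to 5.71) lay above all 8 WT values (4.76 to 5.33). So did all 3 prKO values (5.34 to 6.02) and all 4 srKO values (5.35 to 5.59), so this was not particular to lrKO. Of all genes tested, 0.81% did so in lrKO, 18.3% in prKO and 9.52% in srKO. That probe set is not among the genes tested, since 1 probe set per gene was used.

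Beyond the listed genes, 13 further genes within 10 positions of Cyp11a1 were tested. In lrKO against WT their differences ran between -0.37 (Cd276, an immune checkpoint ligand) and 0.10 (Csk, a kinase that restrains Src family kinases) at 2 weeks, and between -0.27 (Loxl1, an elastin crosslinking enzyme) and 0.14 (Cyp1a2, a liver cytochrome) at 2 months. None of the 13 was called by limma at either age, where 0.1% of all genes tested were called at 2 weeks and 0.184% at 2 months. Likewise 0 lay wholly below WT and 0 wholly above it, as 0.384% of all genes did at 2 weeks and 0.81% at 2 months. At those shares most sets of 13 genes would show 0, so these counts do not show where a rise ends. At an unadjusted p under 0.05 there were 2 at 2 weeks (Cyp1a2 and Cd276) and 0 at 2 months. Their median was -0.05 at 2 weeks and 0.04 at 2 months, where the median of all genes tested was -0.01 at both ages.

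Levels of Sema7a and Cyp11a1 in the same testes did not run together across lines. At 2 weeks Cyp11a1 averaged 12.02 ± 0.19 in prKO testes (SD, n = 4) and 9.09 ± 0.44 in WT testes (SD, n = 8), a rise of 2.93 ± 0.18 (standard error, limma adjusted p = 2.6e-09), while Sema7a was 9.19 in the same prKO testes and 9.39 in WT testes. At 2 months Cyp11a1 rose by 1.89 ± 0.14 in prKO (limma adjusted p = 1.1e-08) and by 0.96 ± 0.13 in srKO (limma adjusted p = 1.8e-05), in the same testes in which Sema7a rose; without the array high in Adam7 the prKO value was 2.12. The lrKO testes had Cyp11a1 values inside or at the edge of the WT range, with the highest Sema7a mean at 2 weeks and, at 2 months, one close to that of prKO without that array.

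**Figure D3:**
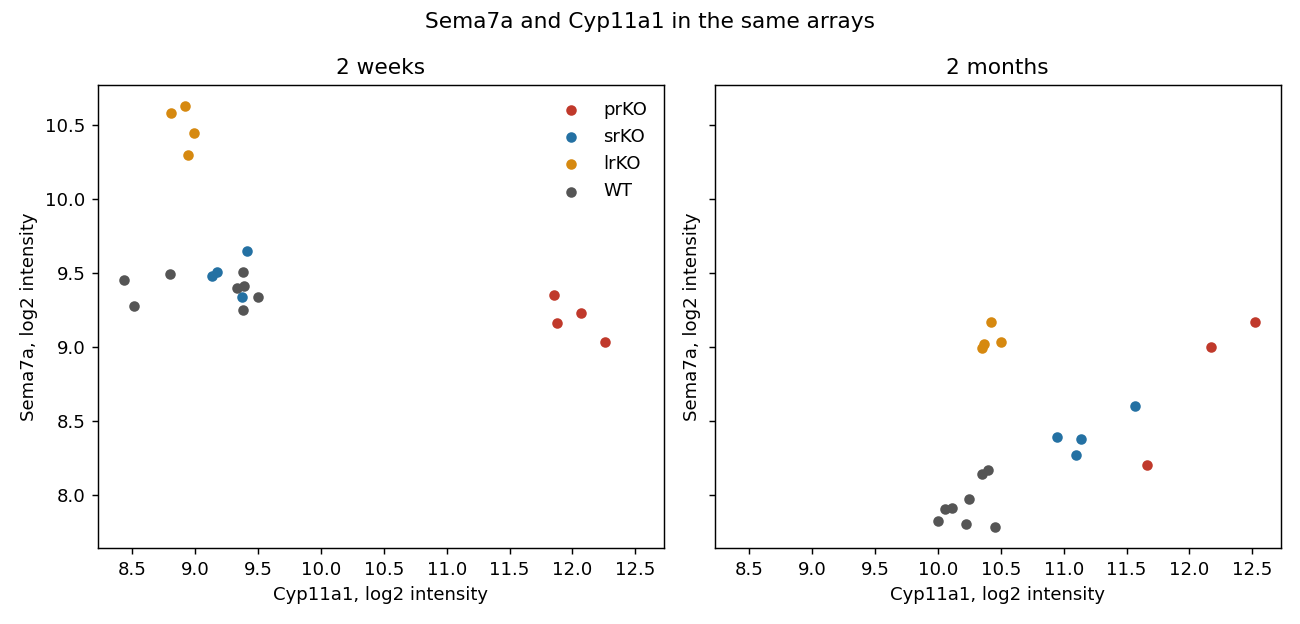
Sema7a against Cyp11a1, both as log2 intensity, with 1 point per array at 2 weeks (left) and 2 months (right). The lrKO points lie above the WT points at similar Cyp11a1, and the prKO points lie to the right, level with WT in Sema7a or lower at 2 weeks and above WT at 2 months.

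The genes beside the driver genes of the other lines were read in the same way. Nr5a1, which encodes SF1, is the namesake of Sf1:Cre and rose in prKO by 0.91 ± 0.07 at 2 weeks (limma adjusted p = 5.1e-08) and 1.35 ± 0.15 at 2 months (limma adjusted p = 5.5e-07, and 1.64 without the array high in Adam7). Its direct neighbours were Psmb7, a proteasome subunit, and Nr6a1, a nuclear receptor of germ cells. At 2 weeks they differed by 0.12 and 0.19 and were not called, although both had an unadjusted p under 0.05. Of 16 tested genes within 10 positions of Nr5a1, 0 rose and 1 (Scai) fell in prKO at 2 weeks, where 7.9% of all genes tested rose and 2.59% fell, and 6 of the 16 had an unadjusted p under 0.05. At 2 months 4 rose and 5 fell, among them Nek6 (0.83), Psmb7 (0.29), Wdr38 (-0.70) and Nr6a1 (-0.43), where 26% of all genes rose and 22.4% fell. Without the array high in Adam7, 2 rose and 3 fell, with these 4 genes among them.

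Amh, a Sertoli cell hormone, is the namesake of Amh:Cre and did not pass the test in srKO (0.03 at 2 weeks and -0.22 at 2 months, limma adjusted p = 0.96 and 0.13). Its neighbours Sf3a2, a splicing factor subunit, and Jsrp1 differed by 0.06 and -0.04 at 2 weeks, not called. Of 18 tested genes within 10 positions, 0 were called in srKO at 2 weeks, where 0.873% of all genes were, with 5 at an unadjusted p under 0.05, and Gadd45b, a stress-induced gene, lay above all WT arrays (1.38% of all genes did). At 2 months Gadd45b rose (0.41), and Csnk1g2, a casein kinase (-1.28), and Jsrp1 (-0.21) fell, where 14.7% of all genes rose and 10.8% fell. Whether a window around 1 driver differed from another was not tested.

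**Figure D4:**
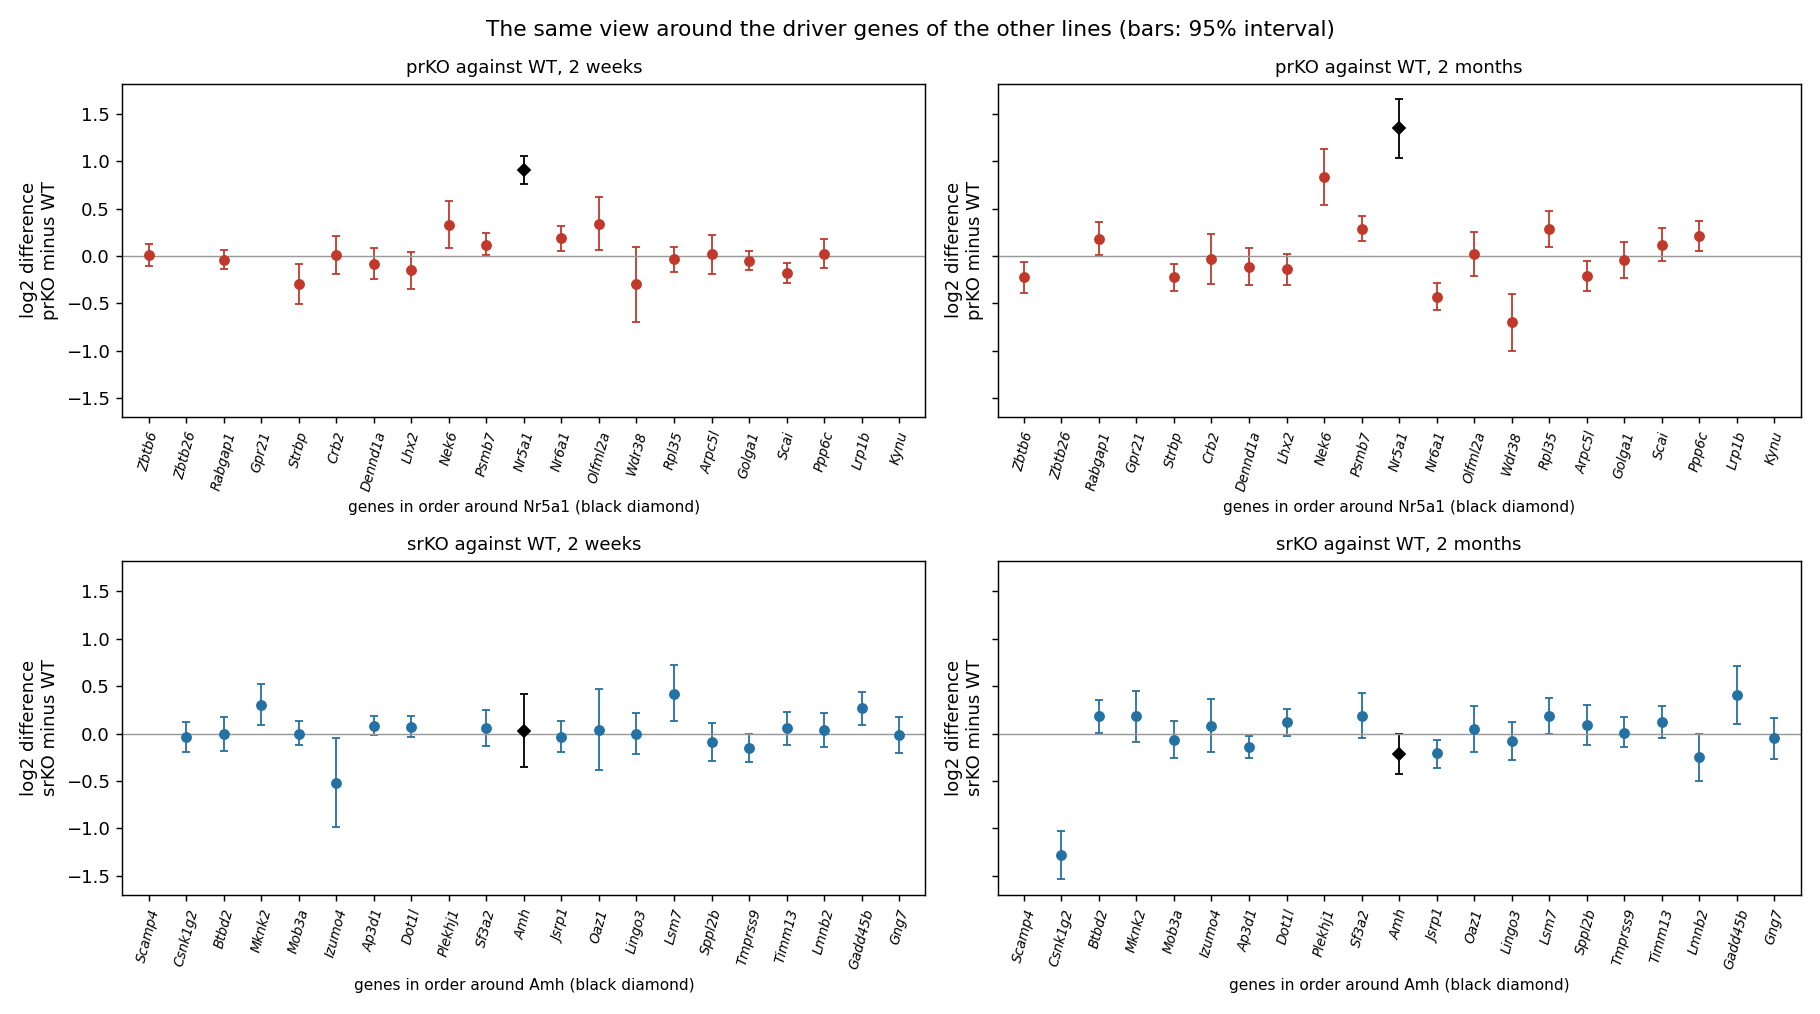
Log2 difference with 95% interval for the genes around Nr5a1 in prKO minus WT (top) and around Amh in srKO minus WT (bottom), at 2 weeks (left) and 2 months (right), in chromosomal order with the driver gene as a diamond; gaps are genes not tested. At 2 weeks the genes directly beside the diamonds lie at 0.12 and 0.19 for Nr5a1 and at 0.06 and -0.04 for Amh.

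In prKO and srKO at 2 weeks 0 of the 6 measured genes were called, with 10.5% of all genes called in prKO and 0.873% in srKO. The largest differences were in srKO, where 3 of 4 arrays lay above all WT arrays in Stra6 (0.39 ± 0.12, limma adjusted p = 0.12) and in Arid3b (0.20 ± 0.06, limma adjusted p = 0.15). At an unadjusted p under 0.05 there were 1 in prKO (Sema7a) and 2 in srKO (Stra6 and Arid3b). Both srKO differences were called with array weights (0.44 and 0.23, limma adjusted p = 0.013 and 0.018).

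At 2 months 4 of the 6 genes were called in prKO, where 48.4% of all genes were, and 3 of 6 in srKO, where 25.4% were. Calls were thus frequent among all genes in both lines at this age. Sema7a was among the genes called in both lines, and its choice used the same WT arrays. Ccdc33 fell by 1.00 ± 0.15 in prKO (limma adjusted p = 2.4e-05, -1.19 without the array high in Adam7) and differed by -0.86 ± 0.14 in srKO (limma adjusted p = 0.0001). All 3 prKO and all 4 srKO arrays lay below all WT arrays, as did 13.8% of all genes in prKO and 7.35% in srKO. Ubl7 had 11.23, 11.38 and 11.14 in prKO testes, all below the WT range of 11.44 to 11.73, a difference of -0.34 ± 0.09 (limma adjusted p = 0.0033, -0.33 without the array high in Adam7). In srKO testes Ubl7 had 11.37, 11.19, 11.57 and 11.57, of which 2 of 4 lay below all WT arrays (-0.17 ± 0.08, limma adjusted p = 0.14).

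Arid3b fell in prKO (-0.25 ± 0.08, limma adjusted p = 0.013), and 2 of 3 prKO arrays were lower than any WT array. It was not called without prKO replicate 1, the array high in Adam7 (-0.22, limma adjusted p = 0.064), or without replicate 3 (-0.21, limma adjusted p = 0.08). Stra6 rose in srKO by 0.37 ± 0.10 (limma adjusted p = 0.012), with 7.57, 7.32, 6.99 and 7.55 in srKO testes against a lowest, median and highest value of 6.76, 7.00 and 7.17 in WT testes. It was not called without srKO replicate 1 (0.30, limma adjusted p = 0.061), without srKO replicate 4 (0.31, limma adjusted p = 0.056) or with WT replicates 5 to 8 as the only WT arrays (0.26, limma adjusted p = 0.14). Stra6 in prKO (0.22 ± 0.11, limma adjusted p = 0.13, and 0.29 without the array high in Adam7) and Edc3 in prKO (-0.04, and -0.02 without that array) and srKO (0.10) were not called.

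Cell type markers were read beside these genes, whose calls at 2 months went in both directions in each line. All 4 of 4 spermatid markers fell in prKO and in srKO at 2 months. Their mean levels were 10.28 to 11.23 in prKO testes, 9.04 to 10.92 in srKO testes and 11.69 to 11.95 in WT testes. The germ cell list had 2 members called lower in prKO and 1 higher in srKO. In prKO at 2 months 5 of 5 macrophage, 4 of 4 endothelial and 3 of 4 peritubular myoid markers rose, and in srKO 3 of 5, 3 of 4 and 1 of 4 rose, where 26% of all genes rose in prKO and 14.7% in srKO. Among 6 Leydig cell markers 4 rose and 1 fell in prKO, and 3 rose and 1 fell in srKO, the fall being that of Hsd3b6 each time (-3.15 in prKO and -1.17 in srKO). Among 8 Sertoli cell markers 4 rose and 1 fell in prKO, and 1 rose and 1 fell in srKO, the fall being that of Fshr, the receptor for follicle-stimulating hormone (-0.68 in prKO and -1.09 in srKO). Without the array high in Adam7 the spermatid, macrophage and endothelial counts in prKO were unchanged, and 2 of 4 myoid, 5 of 6 Leydig cell and 6 of 8 Sertoli cell markers rose. The part of these shifts in the 2-month values of the 6 genes was not tested. In lrKO 0 markers of spermatids, macrophages, endothelium and myoid cells were called at 2 months, where 0.184% of all genes tested were called. At that share most lists of this size would hold 0 calls, so this count does not show unchanged cell types.

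Between lrKO and the other lines, the 5 neighbours gave 1 call against prKO at 2 weeks (Ccdc33, background 16.4%) and 0 against srKO (background 1.95%). At 2 months they gave 2 calls against prKO (background 45.6%) and 2 against srKO (background 26.7%), Ccdc33 and Ubl7 each time, both higher in lrKO. Ubl7 in lrKO minus prKO was 0.49 ± 0.10 (limma adjusted p = 0.00044, and 0.48 without the array high in Adam7) and in lrKO minus srKO 0.32 ± 0.09 (limma adjusted p = 0.014). The second was not called without srKO replicate 2 (0.24, limma adjusted p = 0.067).

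All 6 genes changed between ages in WT testes, where 81.6% of all genes tested did. Ccdc33 was higher at 2 months as given above, and so were Ubl7 (1.81 ± 0.08, limma adjusted p = 7.4e-22) and Arid3b (0.45 ± 0.05, limma adjusted p = 2e-09). Sema7a, Stra6 (-1.34 ± 0.09, limma adjusted p = 8e-16) and Edc3 (-0.64 ± 0.05, limma adjusted p = 9e-15) were lower at 2 months. In each of the 6 genes the 8 arrays of one age did not overlap the 8 of the other, where 20.1% of all genes stood wholly higher and 37.7% wholly lower at 2 months. Sema7a and Ccdc33, both high in lrKO at both ages, thus changed in opposite directions with age in WT testes.

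Other genes of the same families and pathways were not called in lrKO, where 0.1% of all genes tested were called at 2 weeks and 0.184% at 2 months. At those shares most lists of this size would hold 0 calls, so these counts do not set the families apart. Of 19 other semaphorins 0 were called in lrKO at 2 weeks (median -0.05, 2 at an unadjusted p under 0.05) and 0 at 2 months (median 0.02, 1 at an unadjusted p under 0.05). In prKO at 2 months 11 of 19 rose and 2 fell, led by Sema3c (1.05), where 26% of all genes rose and 22.4% fell, and in srKO 4 rose and 1 fell, where 14.7% rose and 10.8% fell. Without the array high in Adam7, 14 of 19 rose in prKO and 1 fell, with Sema3c at 0.88. Of the listed receptors and signalling partners of semaphorin 7A, 3 of 6 had a probe set of 1 symbol, namely Plxnc1, Itga1 and Itgb1, which encode plexin C1 and the integrin alpha 1 and beta 1 chains. None of the 3 was called in lrKO at either age, nor reached an unadjusted p under 0.05, while Itgb1 (1.31 in prKO and 0.67 in srKO) and Plxnc1 rose at 2 months in the other lines. Of 9 retinoid genes, which act beside Stra6, 6 decapping genes, which act with Edc3, and 5 members of the CLK and ARID3 families, 0 were called by limma in lrKO at either age. At an unadjusted p under 0.05 there were 3 of these 20 at 2 weeks (Cyp26b1, Stra8 and Dcp2) and 0 at 2 months.

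The genes whose level was most like that of Sema7a differed with the measure used. Over 39 arrays, after the WT mean of each age was subtracted, the highest Pearson correlations were with Ahcy (0.74), Cdk2ap1 (0.70), Lrrc8c (0.69), Ccndbp1 (0.69) and Pald1 (0.67). Over 8 group means they were with Hdhd3 (0.95), Utp23 (0.95), Il12rb2 (0.95), Mst1 (0.94) and Cdk2ap1 (0.94). Cdk2ap1 was in both sets, and its lrKO differences from WT were 0.62 at 2 weeks and 0.20 at 2 months. Ccdc33 ranked 4679 by the first measure (0.17) and 15475 by the second (-0.65). Arrays of 1 group share age and genotype, so these correlations describe the data and carry no test.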

How the data were processed

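Biotin-labelled cDNA was read on Affymetrix arrays, and the authors deposited log2 intensities, 1 per probe set and array, made with RMA, per the submitters' processing notes. Version, settings and array build were not given in the sources used here. Values ran between 2.54 and 13.62 and array medians between 5.81 and 6.02, no pair of the 39 columns was identical, and no further normalization was applied. Arrays give no read depth, so their number limits the precision.

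Of 41345 probe sets, 23521 carried 1 symbol, 1814 several and 16010 none listed; 23328 of the first matched a RefSeq gene table by Entrez identifier, with 0 symbols changed. The probe set with the highest mean was used for each of 1082 genes with more than 1. A gene was tested where a group mean exceeded 4.62, the 25th percentile of all values.

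Each age had its own limma 3.58.1 model over 4 genotypes (lmFit and eBayes in R 4.3.3), and age contrasts used a model over 8 groups. Two-sided p-values were adjusted over 19007 genes by the Benjamini-Hochberg method, and called means under 0.05. Values after ± are standard errors unless marked SD. The procedure was tested on simulated data. Groups come from the sample titles. Gene order comes from the start and end coordinates in the RefSeq table of GRCm38.p6. Those coordinates were used only to order the genes and not to place probe sets, because the build of the arrays is unknown. Promoter windows come from RefSeq on the same build, and the motif search covered 250 bases before each start.

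The genes, lists and tests were chosen with earlier results of these data known. Named were the listed genes, the driver genes and Prkar1a, genes past the threshold or largest in the driver windows, up to 4 per list, and the 5 most like Sema7a by each measure (model and clone names and receptor families of smell passed over there). Lists were semaphorins, semaphorin 7A receptors, retinoid genes, decapping genes, CLK and ARID3 genes and markers of Leydig, Sertoli, germ, macrophage, endothelial, myoid, adrenal and epididymal cells and of spermatids. Clk3 lacked a probe set of its own, so 5 neighbours were counted besides Sema7a.

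Alternatives were no filter, a stricter filter at 5.94, averaged probe sets, quantile normalization again, centring, array weights, trended and robust eBayes, a fit of the compared groups or of 8 groups, a replicate block, WT replicates 1 to 4 or 5 to 8 alone, and leaving out each array.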

Additional observations from a re-analysis of the deposited data

Results flagged for a closer look

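Among 56 groups of arrays tested for a value far from the others, 1 stood out, and chance gives about 1 in 20. It was Ccdc33 in WT testes at 2 weeks, where replicate 5 had 5.66, against 5.24 for the next highest of the 8 arrays. This is the array that brought WT closest to the lowest lrKO value of 5.69. Without it the difference of lrKO minus WT was 0.92 and passed the test (limma adjusted p = 0.042), against 0.85 with it (limma adjusted p = 0.075). Replicate 5 was singled out because it was the highest WT array, and leaving out the highest lrKO array, replicate 4, gave 0.67 (limma adjusted p = 0.31).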

How the results depend on the processing

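Over all alternatives Sema7a in lrKO minus WT was 1.05 to 1.16 at 2 weeks, and 1.06 to 1.15 at 2 months. The count of neighbours called in lrKO against WT at 2 weeks was 1 with all 8 groups, with the replicate block or against WT replicates 1 to 4 alone, and 0 to 1 when single arrays were left out. At 2 months it was 1 with array weights. The gene was Ccdc33 each time, with limma adjusted p = 0.012, 0.028, 0.019 and 0.018. Genes called in srKO against WT at 2 weeks numbered 2 with array weights, 1 with the replicate block or WT replicates 1 to 4 alone, and 0 to 1 when single arrays were left out. Neighbours called in lrKO against srKO numbered 1 with array weights and 2 with all 8 groups at 2 weeks, and 1 to 2 when single arrays were left out at 2 months. In lrKO against prKO at 2 months 4 were called after quantile normalization or centring. The cause was not tested.

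The replicate numbers did not pair the arrays: deviations of same-numbered arrays had correlations of -0.62 to 0.44 (median -0.04) at 2 weeks and -0.28 to 0.21 (median 0.01) at 2 months. With the block, Sema7a in srKO at 2 months (0.44, limma adjusted p = 0.091), Ubl7 in prKO (-0.25, limma adjusted p = 0.11) and Arid3b in prKO (-0.26, limma adjusted p = 0.07) were not called, and Stra6 in prKO was (0.36, limma adjusted p = 0.038). Over all genes, calls in lrKO against WT numbered 19 at 2 weeks (3 to 942 under other settings) and 35 at 2 months (16 to 145).

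Only differences that were not called changed sign. Edc3 in lrKO at 2 weeks was -0.0034 after quantile normalization, -0.013 with array weights, -0.045 against WT replicates 5 to 8 alone, and -0.037 to 0.051 without single arrays. Arid3b in lrKO at 2 weeks was -0.013 with averaged probe sets and -0.01 against WT replicates 5 to 8 alone. Stra6 in lrKO at 2 weeks was 0.0045 with array weights and -0.13 to 0.011 without single arrays. Ubl7 in prKO at 2 weeks ran between -0.077 and 0.026 without single arrays. Ccdc33 in prKO at 2 weeks was 0.012 with averaged probe sets, 0.036 with the block or WT replicates 1 to 4 alone, and -0.16 to 0.13 without single arrays. Ubl7 in srKO at 2 weeks was 0.039 after centring, 0.017 with the block or WT replicates 1 to 4 alone, and -0.053 to 0.048 without single arrays. Arid3b in srKO at 2 months was -3.2e-05 after centring and -0.021 to 0.086 without single arrays.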
